A study of Homo sapiens with 41 samples.

Results

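The BCL2 family decides whether mitochondria release the proteins that start apoptosis. 10 of its genes were followed here, out of the 58735 genes counted in every library, and were chosen by name: the guardians BCL2, BCL2L1 (BCL-XL) and MCL1, the effectors BAX and BAK1, and the BH3-only genes BID, BIK, BBC3 (PUMA), PMAIP1 (NOXA) and BCL2L11 (BIM). Guardian proteins bind the effectors and the BH3-only proteins and hold them inactive. BAX and BAK1, once free, form pores in the outer mitochondrial membrane and let cytochrome c out. BH3-only proteins report damage or stress: they occupy the guardians or act on BAX and BAK1 directly, and several are switched on at the RNA level. PMAIP1 and BBC3 are known in other cells as targets of the integrated stress response, in which shortage of amino acids or misfolded protein in the endoplasmic reticulum raises the transcription factor ATF4.

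RNA was sequenced from LX-2, an immortalised line of human hepatic stellate cells, and HMLE, an immortalised line of human mammary epithelial cells, each carrying a hairpin named shATF4 or a control hairpin named shCtrl. LX-2 cells received TGFbeta (a cytokine that activates stellate cells), thapsigargin (which empties calcium from the endoplasmic reticulum and so stresses it), AA_Dep or DMSO. HMLE cells received Twist_OE, thapsigargin, AA_Dep or DMSO. The 16 groups of line, hairpin and condition held 2 samples each. The labels give no dose or time, spell out neither AA_Dep nor Twist_OE, name a single ATF4 hairpin, and do not say whether samples were separate cultures or lines were clones, so p-values measure the spread between samples that may be technical. Every group, the DMSO groups included, carries a hairpin. DMSO is the only reference labelled, so whether it matches AA_Dep in medium or Twist_OE in vector cannot be told. In bulk RNA, fewer cells of a kind and less RNA per cell cannot be told apart.

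Total counts were 14551191 to 18776430 per LX-2 library and 15956909 to 23243132 per HMLE library. LX-2 shCtrl thapsigargin replicate 2 stood apart, with counts for 15840 genes, where the rest of LX-2 had 22912 to 24255, and a correlation of 0.892 with its replicate against at least 0.973 for other LX-2 pairs. It was left out of the values below unless it is named, so the LX-2 shCtrl thapsigargin group is 1 library there, and all 16 LX-2 libraries were also fitted. In HMLE the files of the shATF4 AA_Dep samples were identical and were counted as 1 library. ATF4 fell by 0.91 to 1.64 (log2) in LX-2 and by 0.97 to 2.78 in HMLE in the shATF4 groups, and passed the test in all 8 comparisons of hairpins. In shATF4 LX-2 it still rose over DMSO, by 0.82 with AA_Dep and 0.74 with thapsigargin. It stood there at 240 and 235 CPM with AA_Dep and 233 and 210 CPM with thapsigargin, against 226 and 245 CPM in shCtrl DMSO. In shATF4 HMLE its change over DMSO was 0.05 with AA_Dep and -0.24 with thapsigargin. In LX-2 all 12 stellate markers had a median of at least 1 CPM (counts per 1000000 counts of the library) and 9 of 12 epithelial markers did not, and in HMLE all 12 epithelial markers did and 5 of 12 stellate markers did not.

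Bases upstream of 3 members are shown because PMAIP1 and BCL2 moved together in LX-2 and BBC3 had the largest change of the family in HMLE. Each window is the 250 bases before the annotated start in RefSeq (GRCh38.p14), read 5′ to 3′ on the gene's strand: PMAIP1 at chr18:59899746-59899995 (plus strand), BCL2 at chr18:63319770-63320019 (minus strand) and BBC3 at chr19:47232668-47232917 (minus strand). Capitals mark a match to a searched motif.
PMAIP1: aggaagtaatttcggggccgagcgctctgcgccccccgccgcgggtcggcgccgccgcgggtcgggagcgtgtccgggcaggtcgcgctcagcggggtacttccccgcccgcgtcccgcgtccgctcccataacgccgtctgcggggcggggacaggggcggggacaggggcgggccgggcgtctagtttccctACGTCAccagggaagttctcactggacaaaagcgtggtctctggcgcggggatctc
BCL2: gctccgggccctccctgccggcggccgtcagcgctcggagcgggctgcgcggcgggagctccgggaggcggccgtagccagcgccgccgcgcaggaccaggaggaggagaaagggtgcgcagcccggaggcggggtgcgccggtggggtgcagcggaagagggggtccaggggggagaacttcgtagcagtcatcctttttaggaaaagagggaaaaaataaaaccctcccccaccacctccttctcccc
BBC3: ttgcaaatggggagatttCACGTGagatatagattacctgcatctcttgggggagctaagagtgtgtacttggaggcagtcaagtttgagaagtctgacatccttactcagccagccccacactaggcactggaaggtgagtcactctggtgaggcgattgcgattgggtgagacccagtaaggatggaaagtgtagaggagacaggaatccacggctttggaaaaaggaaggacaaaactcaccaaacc
The motif TGACGT, the core of the cyclic AMP response element, or its reverse complement ACGTCA, was found in PMAIP1 alone among the 8 members with a window and in 7.1% of 35116 windows of the same length. CACGTG, the E-box, was found in BAX, BBC3 and BID and in 6.34% of windows. TGACGTCA, which contains TGACGT, and TGATGNAA, the composite site of C/EBP and ATF proteins, were found in no member and in 1.65% and 3.14% of windows. A member was counted if any of its windows held the motif, and BID and BCL2L1 have several windows. The percentages are per window, so members and percentages are not on the same footing. These are matches of letters on either strand and show no binding. MCL1 and BIK have no window here.

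Under DMSO with shCtrl, 8 of 10 members differed between the lines, 2 higher and 6 lower in LX-2 than in HMLE, where 70.4% of 20308 genes did. Among guardians, MCL1 stood at 202 and 195 CPM in LX-2 and 436 and 421 CPM in HMLE (log2 difference -1.30 ± 0.06, with the SE of the fit here and below, adjusted p = 1.74e-16). BCL2L1 was lower by a smaller step (-0.66 ± 0.08), and BCL2 did not pass, at 6.83 and 4.92 CPM in LX-2 and 5.38 and 5.18 CPM in HMLE. Of the effectors, BAK1 was lower in LX-2 (-0.91 ± 0.11), while BAX stood at 103 and 108 CPM in LX-2 and 85.6 and 87.9 CPM in HMLE. BIK, a BH3-only protein of the endoplasmic reticulum, was nearly absent from LX-2, with at most 9 counts in any library, against 7.28 and 8.51 CPM in HMLE under DMSO (-5.74 ± 0.34). BID, which caspase-8 cleaves to carry death-receptor signals to mitochondria, was lower in LX-2 (-0.90 ± 0.08), as was PMAIP1 (-1.41 ± 0.07). BBC3 and BCL2L11 were the members higher in LX-2, by 1.73 ± 0.28 and 0.79 ± 0.09. With all 16 LX-2 libraries, where 51.5% of genes passed, each of these kept its direction, and BCL2L1 and BCL2L11 lost the call (adjusted p = 0.0548 and 0.0895).

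**Figure D1:**
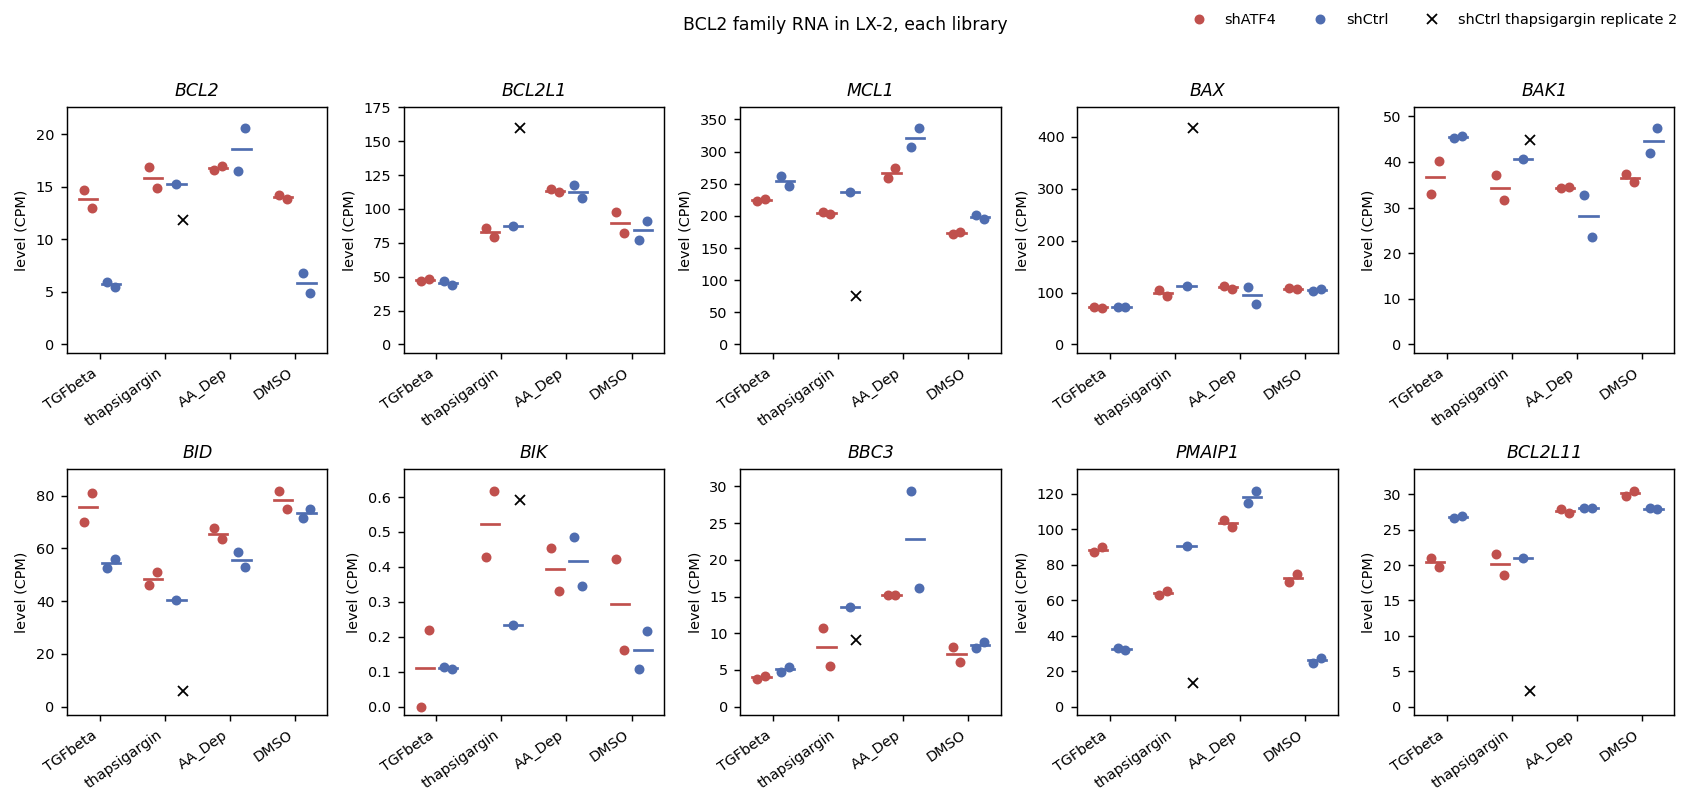
Level of each member (CPM, linear axis) in every LX-2 library, by condition and hairpin. Points are libraries, horizontal bars are group means, and the cross is shCtrl thapsigargin replicate 2, which the means leave out. The shATF4 points of BCL2 and PMAIP1 lie above the shCtrl points under DMSO and TGFbeta. The cross lies far from the point of its own group for BCL2L1, BAX, MCL1, BID, PMAIP1 and BCL2L11.

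In LX-2 kept in DMSO, PMAIP1 and BCL2 were the members that differed with the ATF4 hairpin, and both were higher: 2 of 10 members passed, against 11.6% of 18649 genes tested and 6.28% higher. PMAIP1, whose protein mainly binds MCL1, had 70.5 and 74.6 CPM with shATF4 and 24.9 and 27.4 CPM with shCtrl. That is 2.75-fold (log2 change 1.46 ± 0.09, adjusted p = 5.66e-08). BCL2 had 14.2 and 13.9 CPM with shATF4 and 6.83 and 4.92 CPM with shCtrl, 2.36-fold (log2 change 1.24 ± 0.17, adjusted p = 0.000156). A BH3-only gene and a guardian were thus both higher without added stress. With all 16 LX-2 libraries the sizes were 1.45 and 1.23 and neither call held (adjusted p = 0.339 and 0.0904), where 0.242% of genes passed.

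The difference was also present under TGFbeta. Between hairpins under TGFbeta, 4 of 10 members passed, 3 higher and 1 lower with shATF4, against 21.7% of genes. PMAIP1 had 86.9 and 89.99 CPM with shATF4 and 33.2 and 31.8 CPM with shCtrl (log2 change 1.43 ± 0.09). BCL2 had 14.7 and 13.03 CPM with shATF4 and 5.95 and 5.49 CPM with shCtrl (1.26 ± 0.17), which passed with all 16 libraries as well (adjusted p = 0.0286), whereas PMAIP1 did not (0.152), and 1.29% of genes passed there. BID was higher with shATF4 (0.46 ± 0.10, adjusted p = 0.00388), and BCL2L11, a BH3-only gene that FOXO factors switch on, was lower (-0.41 ± 0.10, adjusted p = 0.0109). Both were smaller than the PMAIP1 and BCL2 steps. The BCL2L11 call was lost without shATF4 replicate 2 (adjusted p = 0.107) or without shCtrl replicate 1 or 2 (0.0652 and 0.0738), and the BID call without shATF4 replicate 2 (0.0676) or shCtrl replicate 1 (0.0513).

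Under AA_Dep and thapsigargin the hairpins stood closer together. Under AA_Dep, PMAIP1 stood at 105 and 102 CPM with shATF4 and 115 and 122 CPM with shCtrl, and BCL2 at 16.6 and 17.01 CPM with shATF4 and 16.5 and 20.6 CPM with shCtrl. There 2 of 10 members passed between hairpins, both lower with shATF4, against 9.91% of genes and 6.04% lower: MCL1 (-0.35 ± 0.07, adjusted p = 0.0067) and PMAIP1 (-0.27 ± 0.08, adjusted p = 0.0473). The MCL1 call was lost without shATF4 replicate 1 (adjusted p = 0.106), and the PMAIP1 call without either shATF4 library or shCtrl replicate 2 (0.177, 0.226 and 0.1). With only the groups compared both calls were lost (0.255 and 0.36), and that of PMAIP1 also with no filter on low counts (0.122). BBC3 had 15.1 and 15.2 CPM with shATF4 and 29.4 and 16.1 CPM with shCtrl, whose replicates differed, and passed without shCtrl replicate 2 (log2 change -1.04, adjusted p = 0.00211) and with no filter on low counts (-0.67, adjusted p = 0.00279). No member passed by edgeR between hairpins under AA_Dep with all 16 libraries, none had an unadjusted p under 0.05, and 0.09% of genes passed. BAX and BAK1 passed, higher with shATF4, only without shCtrl replicate 1 (0.44 and 0.47).
Under thapsigargin, PMAIP1 stood at 63.2 and 65.01 CPM with shATF4 and, with shCtrl, at 90.6 CPM in replicate 1 and 13.2 CPM in replicate 2. It was the 1 member of 10 that passed, lower with shATF4 (-0.48 ± 0.10, adjusted p = 0.0114), against 5.2% of genes and 2.09% lower, and shCtrl replicate 2 alone gives the opposite direction. Once all 16 libraries were fitted no member passed by edgeR, 5 of 10 had an unadjusted p under 0.05, and 0.231% of genes passed. Leaving out either shATF4 library ended the PMAIP1 call (adjusted p = 0.0668 and 0.054).

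AA_Dep raised BBC3, PMAIP1 and MCL1 with both hairpins in LX-2, and BCL2 passed with shCtrl. With shATF4, AA_Dep changed 4 of 10 members, 3 up and 1 down, against 42.4% of genes. MCL1 rose by 0.53 ± 0.07, BBC3 by 1.01 ± 0.28, and PMAIP1 by 0.42 ± 0.08, and BID fell by 0.34 ± 0.10. The BBC3 call was lost without DMSO replicate 2 (adjusted p = 0.0933) and the BID call without AA_Dep replicate 2 (0.0991) or DMSO replicate 1 (0.109). With all 16 libraries no member passed by edgeR, and 2 of 10 had an unadjusted p under 0.05, where 8.52% of genes passed.
With shCtrl, AA_Dep changed 7 of 10 LX-2 members, 5 up and 2 down, where 45.6% of genes changed. PMAIP1 rose 4.47-fold (log2 change 2.16 ± 0.09, adjusted p = 4.19e-11), BCL2 3.11-fold (1.64 ± 0.16) and BBC3 2.69-fold (1.43 ± 0.27), and these are the members that also passed with all 16 libraries (adjusted p = 0.00668, 0.00125 and 0.0193), where 13% of genes did. The other guardians rose too, MCL1 by 0.68 ± 0.07 and BCL2L1 by 0.40 ± 0.10, the second not without DMSO replicate 1 (adjusted p = 0.0889). BAK1 (-0.69 ± 0.14) and BID (-0.42 ± 0.10) fell. With only the groups compared BCL2L1 and BID did not pass (adjusted p = 0.0832 and 0.0569). BAX passed only without AA_Dep replicate 1 (-0.47, adjusted p = 0.00015), since its shCtrl AA_Dep libraries stood at 112 and 77.3 CPM, against 103 and 108 CPM in DMSO.

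The difference between these responses was tested directly. For AA_Dep, PMAIP1 and BCL2 passed, with a smaller rise in shATF4 than in shCtrl cells (differences of the log2 changes -1.74 ± 0.12 and -1.46 ± 0.22, adjusted p = 3.97e-07 and 0.000734). They are 2 of 10 members, both downward, against 10.6% of genes and 6.65% downward. MCL1 (-0.15 ± 0.10) and BBC3 (-0.42 ± 0.39) did not pass. With all 16 libraries the sizes were -1.73 and -1.46, and no member passed by edgeR (adjusted p = 0.661 and 0.285), where 0.0675% of genes did. The high DMSO level with shATF4, which enters both this difference and the comparison of hairpins under DMSO, is shared between them.

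In shATF4 LX-2, thapsigargin lowered BID and BCL2L11. It changed 3 of 10 members, all downward, against 37.1% of genes and 19.2% downward. BID had 45.98 and 51.1 CPM with thapsigargin and 81.9 and 74.8 CPM in DMSO (-0.76 ± 0.10, adjusted p = 2.75e-05). BCL2L11 had 21.6 and 18.6 CPM with thapsigargin and 29.8 and 30.5 CPM in DMSO (-0.65 ± 0.11). PMAIP1 fell slightly (-0.25 ± 0.08, adjusted p = 0.0309), a call that ended without any 1 of the 4 libraries compared, with no filter on low counts (0.118) and with DESeq2 (0.0578). In the fit of all 16 libraries no member passed by edgeR, none had an unadjusted p under 0.05, and 7.86% of genes passed.
In shCtrl LX-2, thapsigargin changed 4 of 10 members, 2 up and 2 down, against 40.5% of genes. The value rests on replicate 1 alone. There PMAIP1 was higher (1.69 ± 0.10, adjusted p = 3.53e-09) and so was BCL2 (1.28 ± 0.19), at 15.3 CPM in replicate 1 and 11.9 CPM in replicate 2 with thapsigargin, against 6.83 and 4.92 CPM in DMSO. BID was lower (-0.96 ± 0.13), as was BCL2L11 (-0.52 ± 0.13). In replicate 2 PMAIP1 stood at 13.2 CPM, below DMSO. BAX stood at 112 CPM in replicate 1 and 416 CPM in replicate 2, and MCL1 at 237 CPM in replicate 1 and 75.5 CPM in replicate 2. By level the replicates disagreed in direction for PMAIP1 and MCL1. In the fit, BCL2L1, BAX and BAK1 also turned sign when replicate 2 alone stood for the group (log2 changes 1.67, 2.73 and 0.75). With all 16 libraries BCL2, BAX and BID passed (1.56, 1.98 and -1.60), PMAIP1 did not (1.03, adjusted p = 0.0714), and 34.4% of genes passed. The responses differed between hairpins for PMAIP1 (-1.94 ± 0.13, adjusted p = 3.56e-07) and BCL2 (-1.17 ± 0.25, adjusted p = 0.0103), 2 of 10 members, both downward, against 6.13% of genes and 2.46% downward, and with all 16 libraries no member passed by edgeR, 4 had an unadjusted p under 0.05 and 0.27% of genes passed. Without replicate 1, on shCtrl replicate 2 alone, the PMAIP1 value was -0.01.

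TGFbeta raised MCL1 and PMAIP1 and lowered BCL2L1 and BAX with both hairpins. It changed 5 of 10 members with shATF4 and 5 of 10 with shCtrl, each time 2 up and 3 down, against 27.6% of genes with shATF4 and 22.1% with shCtrl. The guardians split: MCL1 rose by 0.49 ± 0.07 with shATF4 and 0.49 ± 0.07 with shCtrl, while BCL2L1 fell, at 47.2 and 48.2 CPM with TGFbeta and 97.7 and 81.98 CPM in DMSO with shATF4, and 46.9 and 44.2 CPM with TGFbeta and 77.5 and 91.00 CPM in DMSO with shCtrl (log2 changes -0.79 ± 0.11 and -0.76 ± 0.11). The effector BAX fell (-0.47 ± 0.13 with shATF4 and -0.41 ± 0.13 with shCtrl). Its shATF4 call was lost without DMSO replicate 1 or either TGFbeta library (adjusted p = 0.069 to 0.078), and its shCtrl call without any 1 of the 4 libraries (0.0553 to 0.143). PMAIP1 rose by 0.41 ± 0.08 with shATF4 and 0.44 ± 0.09 with shCtrl. BCL2L11 fell with shATF4 (-0.44 ± 0.10), not without TGFbeta replicate 2 (adjusted p = 0.0632), and BID fell with shCtrl (-0.30 ± 0.10), a call lost without any 1 of the 4 libraries and with no filter on low counts (adjusted p = 0.0513). BBC3, not called here, passed as lower under TGFbeta with no filter on low counts and with only the groups compared, with shATF4 (adjusted p = 0.00842 and 0.0036) and with shCtrl (0.0294 and 0.0189). No difference of these responses between hairpins passed for any of the 10 members with edgeR or with DESeq2, 2 had an unadjusted p under 0.05 (BID 0.38 ± 0.14 and BCL2L11 -0.50 ± 0.15), and 0.987% of genes passed. With all 16 libraries no member passed in either TGFbeta response, where 1 of 10 with shATF4 and 1 of 10 with shCtrl had an unadjusted p under 0.05 by edgeR, and 2.42% of genes passed with shATF4 and 3.15% with shCtrl. The summed level of 12 stellate and fibroblast markers was 27565 to 28781 CPM with TGFbeta and 9787 to 10007 CPM in DMSO with shATF4, and 49113 to 49972 CPM with TGFbeta and 15015 to 15614 CPM in DMSO with shCtrl. Their part in the result was not tested.

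**Figure D2:**
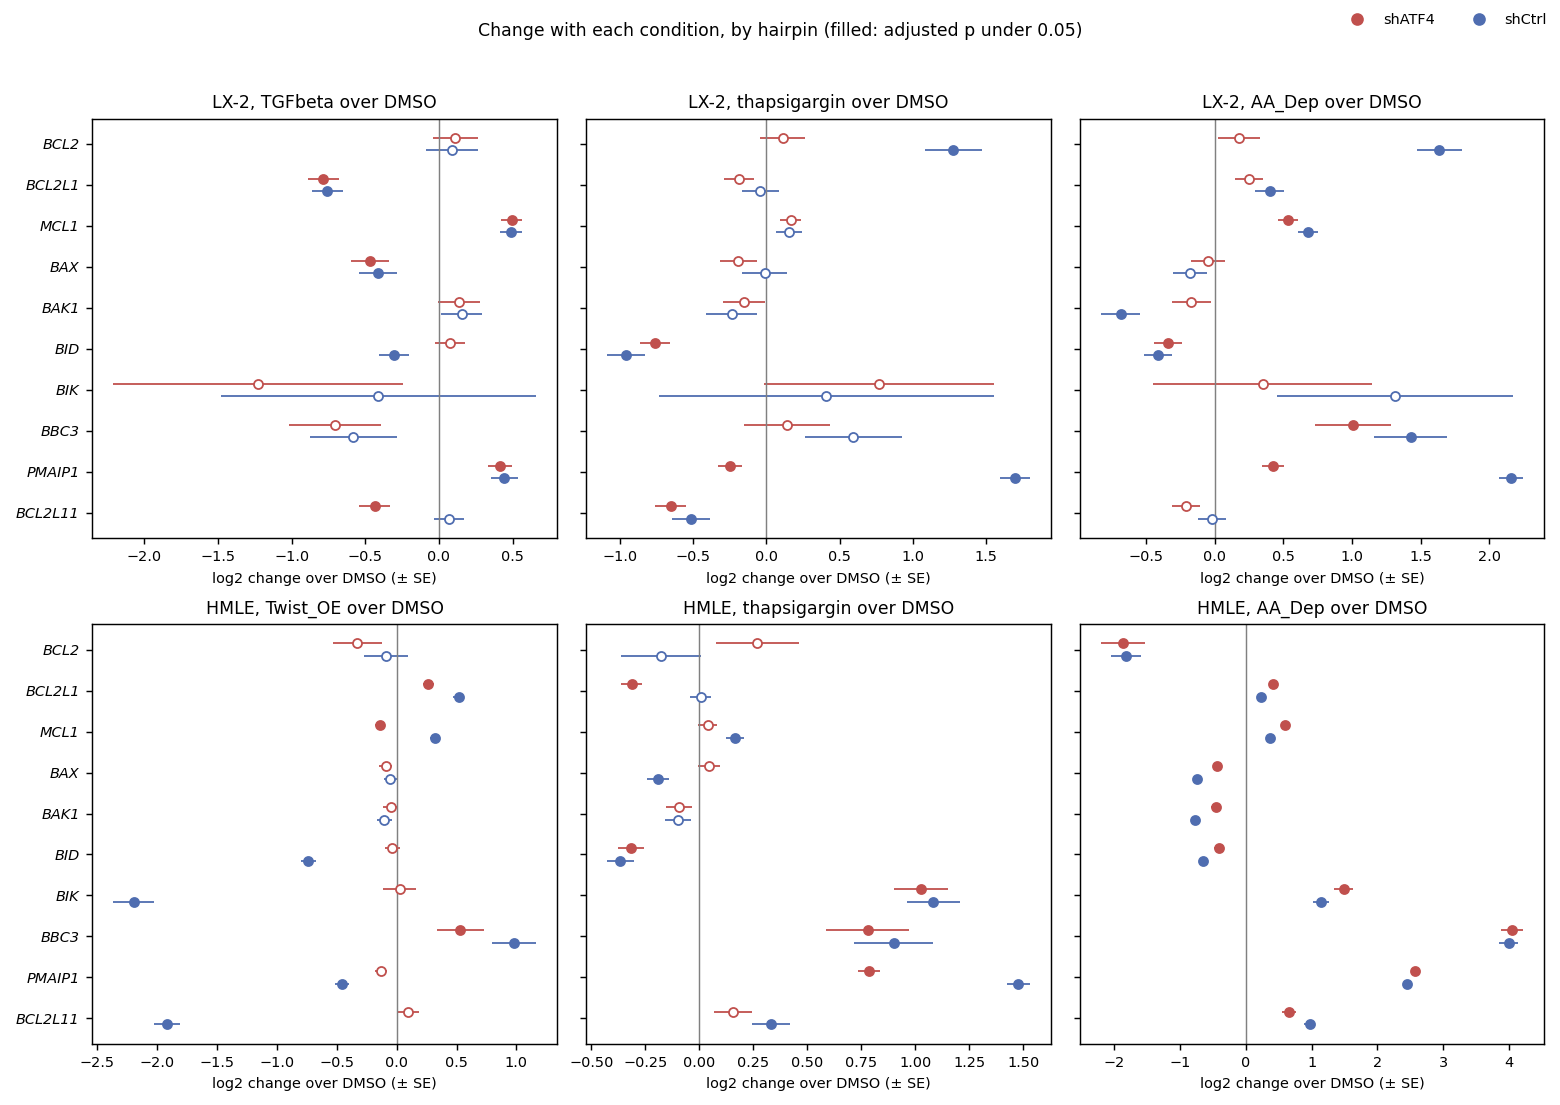
Log2 change over DMSO (± SE) of each member in each condition, with shATF4 above shCtrl on each row. Filled points have an adjusted p under 0.05. The rows of BCL2 and PMAIP1 part between hairpins under thapsigargin and AA_Dep in LX-2, and all 10 rows are filled for both hairpins under AA_Dep in HMLE.

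HMLE cells answered AA_Dep with the whole family. All 10 members changed with shATF4 and all 10 with shCtrl, each time 6 up and 4 down, against 54.1% of 17940 genes with shATF4 and 61.7% with shCtrl. The shATF4 AA_Dep value is a single library, assumed to vary like the others. BBC3, whose protein binds every guardian, had 34.8 CPM with AA_Dep and 1.89 and 2.05 CPM in DMSO with shATF4, and 38.8 and 37.6 CPM with AA_Dep and 2.34 and 2.05 CPM in DMSO with shCtrl. That is 16.6-fold (log2 change 4.06 ± 0.17, adjusted p = 4.93e-13) with shATF4 and 15.99-fold (3.999 ± 0.15, adjusted p = 6.44e-14) with shCtrl. PMAIP1 had 528 CPM with AA_Dep and 82.00 and 85.6 CPM in DMSO with shATF4, and 354 and 364 CPM with AA_Dep and 60.5 and 60.9 CPM in DMSO with shCtrl (5.96-fold and 5.47-fold). Of the other BH3-only genes, BIK and BCL2L11 rose, by 1.49 ± 0.15 and 0.65 ± 0.11 with shATF4 and by 1.14 ± 0.12 and 0.97 ± 0.09 with shCtrl.
The effectors moved the other way. BAX had 71.1 CPM with AA_Dep and 90.7 and 90.7 CPM in DMSO with shATF4, and 56.8 and 55.5 CPM with AA_Dep and 85.6 and 87.9 CPM in DMSO with shCtrl (-0.43 ± 0.07 and -0.74 ± 0.05). BAK1 fell (-0.46 ± 0.08 with shATF4 and -0.77 ± 0.06 with shCtrl). So did the BH3-only gene BID (-0.40 ± 0.08 with shATF4 and -0.66 ± 0.06 with shCtrl). Among guardians BCL2 fell, to 1.07 CPM with AA_Dep, against 3.79 and 3.60 CPM in DMSO, with shATF4 and to 1.62 and 1.59 CPM with AA_Dep, against 5.38 and 5.18 CPM in DMSO, with shCtrl. MCL1 and BCL2L1 rose by at most 0.60 ± 0.05. The low BCL2 level rests on 17 counts in the shATF4 AA_Dep library.
Cell markers moved with AA_Dep as well. The summed level of 12 stellate and fibroblast markers was 6600 CPM with AA_Dep and 725 to 801 CPM in DMSO with shATF4, and 4442 to 5083 CPM with AA_Dep and 639 to 681 CPM in DMSO with shCtrl. That of 12 epithelial markers was 14812 CPM with AA_Dep and 9015 to 9358 CPM in DMSO with shATF4, and 14448 to 14853 CPM with AA_Dep and 11020 to 11088 CPM in DMSO with shCtrl. The part of the markers in the AA_Dep result was not tested.
In HMLE ATF4 stood at 134 CPM with shATF4 and at 947 and 955 CPM with shCtrl under AA_Dep. Between hairpins under AA_Dep 6 of 10 members passed, all higher with shATF4, against 16.9% of genes and 9.77% higher: PMAIP1 by 0.60 ± 0.06 (adjusted p = 3.96e-07), BAX by 0.39 ± 0.07, BID by 0.31 ± 0.08, BAK1 by 0.24 ± 0.08, BCL2L1 by 0.18 ± 0.06 and MCL1 by 0.18 ± 0.05. The calls of BCL2L1, MCL1 and BAK1 were lost without either shCtrl library (adjusted p from 0.0692 to 0.182), and that of BID without shCtrl replicate 2 (0.0929). With no filter on low counts all 3 of BCL2L1, MCL1 and BAK1 also failed (0.279, 0.112 and 0.191), with DESeq2 BCL2L1 and BAK1 did (0.0701 and 0.124), and BAK1 failed with DESeq2's size factors in edgeR (0.0548) and with only the groups compared (0.0536). BBC3 did not pass (-0.09 ± 0.13, adjusted p = 0.729). The response differed between hairpins for 1 of 10 members, BAX (0.31 ± 0.08, adjusted p = 0.0418), against 5.09% of genes, and this ended without any 1 of the 6 libraries that can be left out (adjusted p from 0.0796 to 0.159), with DESeq2 or its size factors, with no filter and with only the groups compared (0.0592 to 0.287).
The nuclear RNAs MALAT1 and NEAT1 moved with BBC3. In HMLE MALAT1 stood at 173 CPM with AA_Dep and 20.7 and 20.8 CPM in DMSO with shATF4, and at 171 and 172 CPM with AA_Dep and 17.5 and 16.9 CPM in DMSO with shCtrl. NEAT1 stood at 942 CPM with AA_Dep and 65.6 and 75.9 CPM in DMSO with shATF4, and at 1031 and 1078 CPM with AA_Dep and 61.7 and 77.0 CPM in DMSO with shCtrl. Over the 16 groups, with each line centred, these were the first and the third of 9990 genes most alike to BBC3 in level (r = 0.971 and 0.955). Their part in the BBC3 result was not tested.

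Thapsigargin drew a narrower answer from HMLE, led by BH3-only genes. With shATF4 it changed 5 of 10 members, 3 up and 2 down, against 32.5% of genes, and with shCtrl 7 of 10, 5 up and 2 down, against 36.8%. PMAIP1 had 137 and 148 CPM with thapsigargin and 82.00 and 85.6 CPM in DMSO with shATF4, and 159 and 169 CPM with thapsigargin and 60.5 and 60.9 CPM in DMSO with shCtrl. Its rise was 0.79 ± 0.05 with shATF4 and 1.48 ± 0.05 with shCtrl, and the difference of the responses passed (-0.69 ± 0.07, adjusted p = 8.66e-06). BIK rose by 1.03 ± 0.12 with shATF4 and 1.08 ± 0.12 with shCtrl, and BBC3 by 0.78 ± 0.19 and 0.90 ± 0.18. BID fell (-0.32 ± 0.06 with shATF4 and -0.36 ± 0.06 with shCtrl). BCL2L11 rose with shCtrl (0.33 ± 0.09), and with shATF4 its change was 0.16 ± 0.09.
The guardian BCL2L1 fell with shATF4, to 91.1 and 91.8 CPM with thapsigargin, against 115 and 115 CPM in DMSO, and with shCtrl stood at 117 and 110.1 CPM with thapsigargin and 115 and 118 CPM in DMSO. Its response differed between hairpins (-0.32 ± 0.07, adjusted p = 0.00721), so that 2 of 10 members did, against 4.56% of genes. With shCtrl, MCL1 rose (0.17 ± 0.04) and BAX fell (-0.19 ± 0.05), calls that ended without DMSO replicate 2 for both (adjusted p = 0.0731 and 0.0628) and without thapsigargin replicate 2 for BAX (0.0832). Between hairpins under thapsigargin 4 of 10 members passed, against 24.3% of genes: BAX was higher with shATF4 (0.31 ± 0.05), and BCL2L1 (-0.33 ± 0.05), MCL1 (-0.17 ± 0.04) and PMAIP1 (-0.21 ± 0.05) were lower. The MCL1 and PMAIP1 calls ended without shATF4 replicate 1 (adjusted p = 0.0807 and 0.0713).

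**Figure D3:**
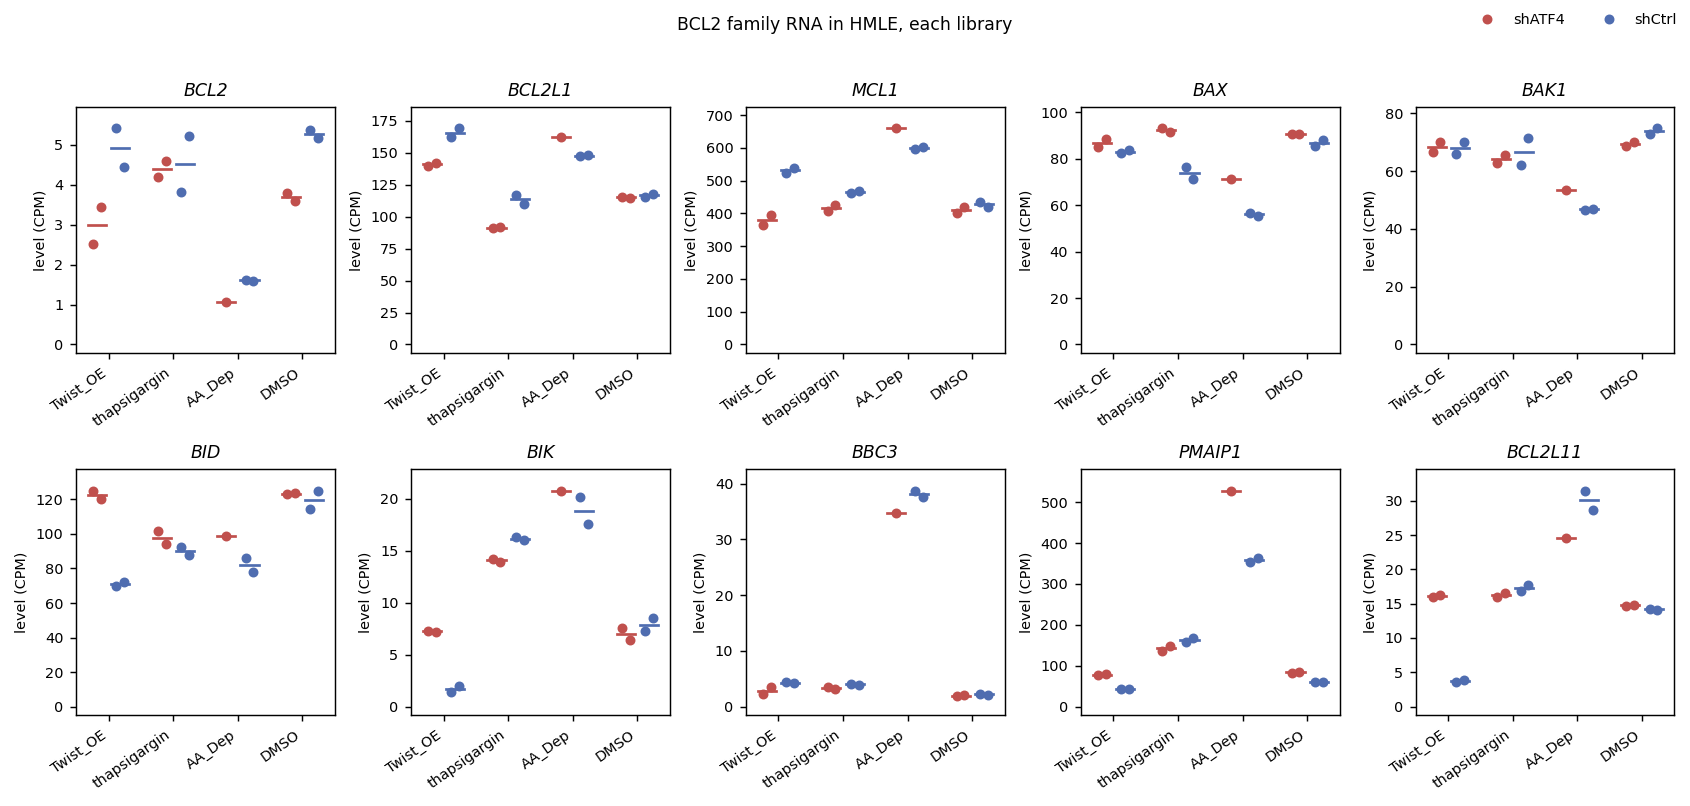
Level of each member (CPM, linear axis) in every HMLE library, by condition and hairpin. Points are libraries and horizontal bars are group means, and shATF4 AA_Dep has 1 library. BBC3 lies between 34.8 and 38.8 CPM under AA_Dep and below 5 CPM in every other group, and BIK and BCL2L11 are lowest in shCtrl Twist_OE.

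Twist_OE in HMLE changed 3 of 10 members with shATF4 and 7 of 10 with shCtrl. With shATF4, neither BIK nor BCL2L11 passed under Twist_OE. BCL2L11 had 16.01 and 16.2 CPM with Twist_OE and 14.7 and 14.8 CPM in DMSO, and BIK 7.32 and 7.23 CPM with Twist_OE and 7.53 and 6.46 CPM in DMSO. Those that passed with shATF4, where 35.3% of genes did, were these: BCL2L1 rose (0.26 ± 0.05), BBC3 rose (0.53 ± 0.20) and MCL1 fell (-0.14 ± 0.04). The BBC3 call was lost without either DMSO library or Twist_OE replicate 2 (adjusted p = 0.205, 0.101 and 0.579) and with no filter, DESeq2 or only the groups compared (0.121 to 0.134), and the MCL1 call without DMSO replicate 2 or Twist_OE replicate 1 (0.121 and 0.161).
With shCtrl it lowered 4 BH3-only genes and raised 1. The 7 were 3 up and 4 down, against 57.2% of genes. BCL2L11 had 3.59 and 3.85 CPM with Twist_OE and 14.3 and 14.1 CPM in DMSO (-1.92 ± 0.11, adjusted p = 1.97e-11). BIK had 1.43 and 1.97 CPM with Twist_OE and 7.28 and 8.51 CPM in DMSO (-2.19 ± 0.17, adjusted p = 1.79e-09). BID (-0.74 ± 0.06) and PMAIP1 (-0.46 ± 0.06) fell less, and BBC3 rose (0.98 ± 0.18). Of the guardians, BCL2L1 rose by 0.52 ± 0.05 and MCL1 by 0.32 ± 0.04, while BCL2 did not pass (-0.09 ± 0.18), and neither did the effectors BAX (-0.05 ± 0.05) and BAK1 (-0.10 ± 0.06).
Between hairpins under Twist_OE 8 of 10 members passed, 4 higher and 4 lower with shATF4, against 47.2% of genes. BCL2L11 and BIK were 4.24-fold and 4.17-fold higher with shATF4 (log2 2.08 ± 0.11 and 2.06 ± 0.17), PMAIP1 0.80 ± 0.06 and BID 0.76 ± 0.06 higher. The guardians BCL2 (-0.74 ± 0.20), MCL1 (-0.51 ± 0.04) and BCL2L1 (-0.26 ± 0.05) were lower with shATF4, and so was BBC3 (-0.60 ± 0.17). The BCL2 call ended without shATF4 replicate 1 or shCtrl replicate 1 (adjusted p = 0.0611 and 0.0633) and the BBC3 call without shATF4 replicate 1 (0.122) or with only the groups compared (0.0713). The responses to Twist_OE differed between hairpins for 6 of 10 members, against 29.7% of genes: BIK (2.22 ± 0.22), BCL2L11 (2.01 ± 0.14), BID (0.70 ± 0.09) and PMAIP1 (0.33 ± 0.08) upward, and MCL1 (-0.46 ± 0.06) and BCL2L1 (-0.25 ± 0.07) downward.
The Twist_OE cells of the hairpins were unequal in TWIST1 and in cell markers. TWIST1 had 592 and 726 counts in shATF4 Twist_OE, 2417 and 2991 in shCtrl Twist_OE and 381 and 334 in shCtrl DMSO, and was lower with shATF4 under Twist_OE (log2 change -2.09). The summed level of 12 epithelial markers was 8026 to 8349 CPM in shATF4 Twist_OE, 1244 to 1262 CPM in shCtrl Twist_OE and 11020 to 11088 CPM in shCtrl DMSO. That of 12 stellate and fibroblast markers was 4726 to 5390 CPM in shATF4 Twist_OE, 17845 to 21611 CPM in shCtrl Twist_OE and 639 to 681 CPM in shCtrl DMSO. In shATF4 DMSO TWIST1 had 318 and 219 counts. The sums there were 9015 to 9358 CPM for epithelial and 725 to 801 CPM for stellate and fibroblast markers. Their part in the result was not tested.

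Without added stress the ATF4 hairpin changed 1 of 10 members in HMLE, against 12.8% of genes and 6.08% higher. PMAIP1 was higher with shATF4 (0.48 ± 0.05, adjusted p = 5.73e-06). BCL2, which was higher in LX-2 with shATF4, had 3.79 and 3.60 CPM with shATF4 and 5.38 and 5.18 CPM with shCtrl in HMLE (-0.50 ± 0.19, adjusted p = 0.0955). A difference between the lines in the effect of the hairpin was not tested.

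**Figure D4:**
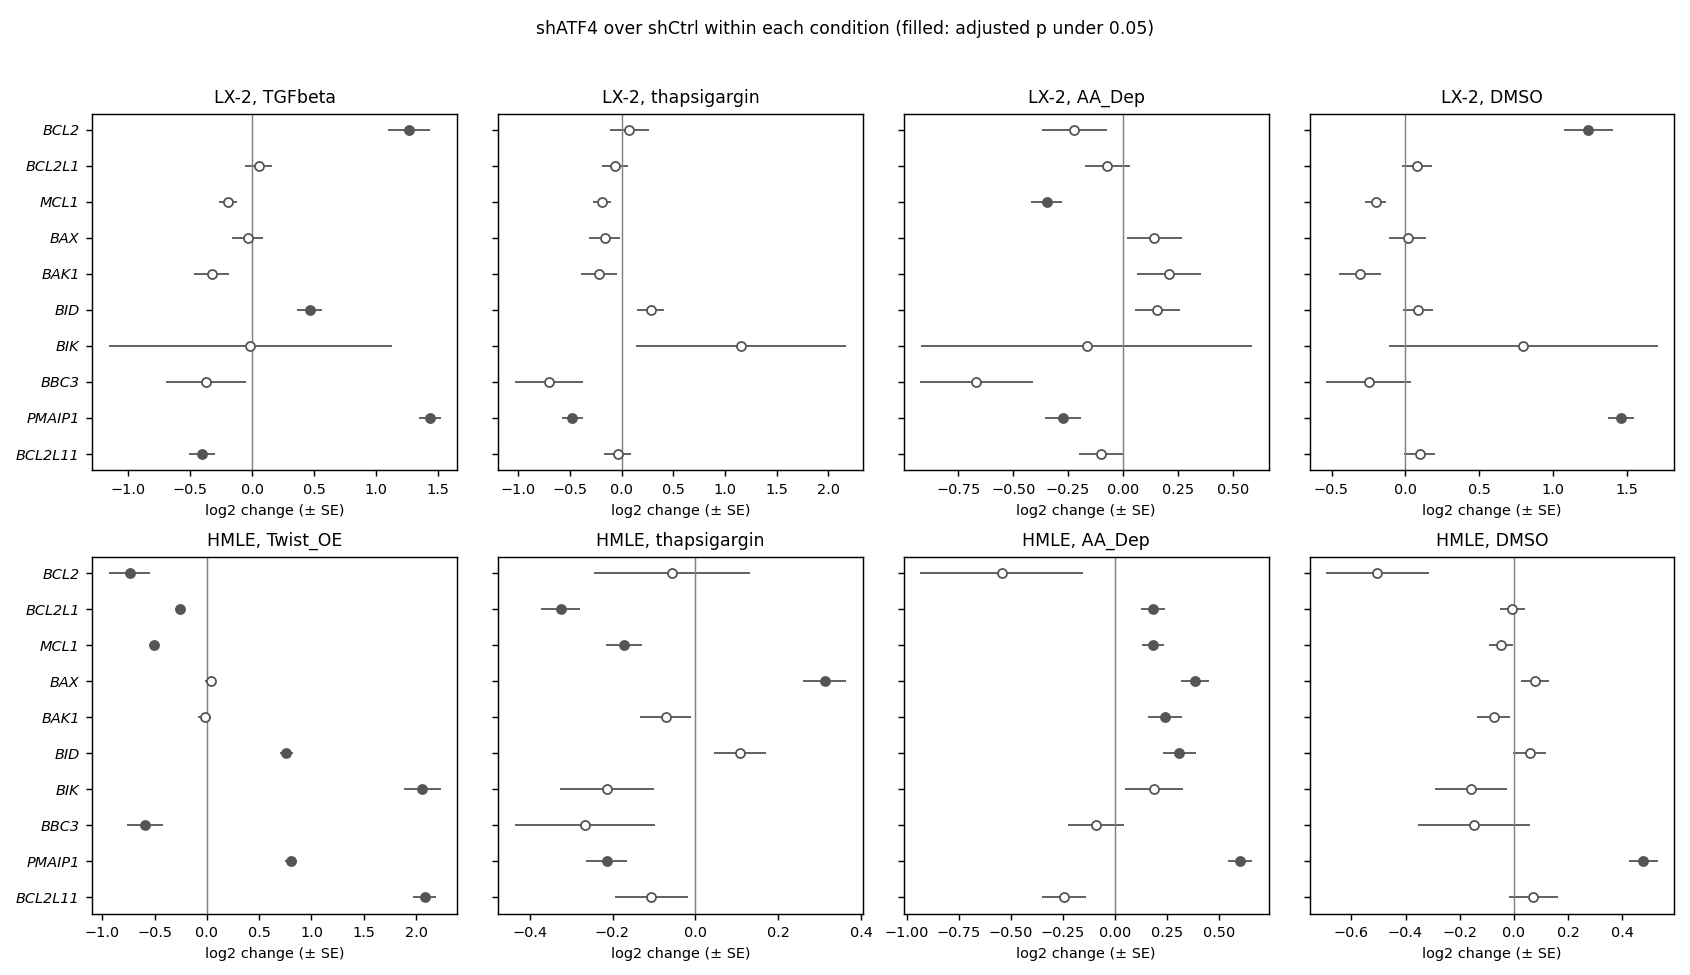
Log2 change of shATF4 over shCtrl (± SE) of each member within each condition, LX-2 above HMLE. Filled points have an adjusted p under 0.05, and the horizontal scale differs between panels. PMAIP1 is filled in all 8 panels, at positive values under DMSO and TGFbeta or Twist_OE in both lines and under AA_Dep in HMLE, and at negative values elsewhere.

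PMAIP1 and BCL2 lie on the same chromosome, 18. Their mean levels followed each other over the 8 LX-2 groups (r = 0.95, a description over groups that share hairpins and conditions). Over the 8 HMLE groups they did not (r = -0.83). In the RefSeq annotation 45 genes lie between them, looked at after the values were seen. In LX-2 9 of these were tested. With shATF4 over shCtrl under DMSO 3 of the 9 were higher and 0 lower, with a median of 0.28, against 0.01 over all genes tested, of which 6.28% were higher and 11.6% passed. They were TNFRSF11A (1.26), RNF152 (0.80) and PHLPP1 (0.36). Under TGFbeta 3 of the 9 were higher and 0 lower (median 0.415), where 21.7% of all genes passed. Under AA_Dep 1 was higher, MC4R (4.07 ± 1.12), and 1 lower, with a median of -0.18, where 9.91% of all genes passed. Under DMSO MC4R had a change of 0.0 and no SE, so its counts there were too few to compare. Under thapsigargin the median was 0.33. The difference of the AA_Dep responses, which shares the DMSO groups, was lower for 3 of the 9 and higher for 0 (median -0.53). There 6.65% of all genes were lower and 10.6% passed. In HMLE 7 were tested. With shATF4 over shCtrl 0 of these passed under DMSO (median 0.06). Under Twist_OE 6 were higher and 0 lower (median 0.95), where 47.2% of all genes passed. The HMLE medians were 0.14 under thapsigargin and -0.07 under AA_Dep.

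Other genes of the pathway were read from lists chosen with earlier results of these data known. Of 15 regulators of BH3-only genes (ATF4, DDIT3, ATF3, TRIB3, TP73, FOXO factors and others), all tested, 10 rose and 3 fell with AA_Dep in shCtrl LX-2 (median 0.70 against 0.02 over all genes), where 45.6% of all genes changed. DDIT3, which encodes CHOP, rose by 3.07 and TP73 by 3.18. With shATF4 over shCtrl under AA_Dep in LX-2, 2 of 15 were higher and 9 lower (median -0.44 against -0.01), where 9.91% of all genes passed. Those lower included DDIT3 (-0.78) and TRIB3 (-1.90). The count and the median include ATF4 itself (-1.64), whose fall was set by the hairpin and is no result about the list. In HMLE AA_Dep raised 8 and lowered 2 with shATF4 and raised 11 and lowered 4 with shCtrl (medians 0.42 and 0.72), where 54.1% of all genes changed with shATF4 and 61.7% with shCtrl. With shCtrl DDIT3 rose by 4.04. Between hairpins under AA_Dep in HMLE, where ATF4 changed by -2.78, the list did not shift downward as it did in LX-2. Its median there was 0.16 with shATF4 over shCtrl, against 0.03 over all genes, and rests on 1 shATF4 library.
Downstream of the mitochondria, genes moved both ways. Of 14 genes of the apoptosome, the effector caspases and their inhibitors, AA_Dep in HMLE raised 4 and lowered 7 with shATF4 and raised 4 and lowered 8 with shCtrl (medians -0.20 and -0.34, against 0.01 and 0.0038 over all genes), so that 11 and 12 of 14 changed where 54.1% and 61.7% of all genes did. With shCtrl CYCS, cytochrome c itself, fell (-1.39), as did AIFM1 (-0.82), and the caspase inhibitor BIRC3 rose (1.33). In shCtrl LX-2 AA_Dep raised 2 of the 14 and lowered 3 (median 0.05 against 0.02 over all genes), where 45.6% of all genes changed. Those raised were the caspase inhibitors XIAP (1.01) and BIRC2 (0.84), and those lowered included AIFM1 (-1.35) and CASP6 (-0.77).
Of 13 other relatives of BCL2, 10 were tested in each line. AA_Dep raised 7 and lowered 2 in HMLE with shATF4 and raised 6 and lowered 3 with shCtrl, and raised 5 and lowered 1 in LX-2 with either hairpin. Their medians in HMLE were 0.56 with shATF4 and 0.39 with shCtrl, where 54.1% and 61.7% of all genes changed, and in LX-2 0.45 with shATF4 and 0.39 with shCtrl, where 42.4% and 45.6% did. The BH3-only gene BMF had 77 counts with AA_Dep and 4 and 4 in DMSO with shATF4 in HMLE, and 142 and 128 with AA_Dep and 10 and 7 in DMSO with shCtrl. In LX-2 BMF had 120 and 119 counts with AA_Dep and 87 and 64 in DMSO with shATF4. With shCtrl in LX-2 it did not rise, at 108 and 136 counts with AA_Dep and 125 and 157 in DMSO. HRK, a BH3-only gene known from neurons, had 39 and 37 counts with AA_Dep and 6 and 14 in DMSO with shATF4 in LX-2, and 89 and 114 with AA_Dep and 0 and 1 in DMSO with shCtrl. Of 13 partners and turnover factors of the family, Twist_OE in HMLE lowered 9 and raised 0 with shATF4 and lowered 10 and raised 0 with shCtrl (medians -0.22 and -0.37, against 0.0094 and 0.0021 over all genes). Of all genes, 17.2% were lower and 35.3% changed with shATF4, and 28.9% were lower and 57.2% changed with shCtrl.

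Each member's nearest genes in level were sought among 9990 genes over the 16 groups with each line centred. PMAIP1 was most like TMEM161B (r = 0.94), LETMD1 and SAT1 (0.93 each). BIK was most like SYNE2 (0.97), FOXC1 (0.95) and PTPN13 (0.93), and BCL2L11 like LIMK2 (0.95), WWC1 and MARK2 (0.94 each). Among guardians and effectors, BCL2 was most like UTP18 (0.91), BCL2L1 like KLC1 (0.90), MCL1 like ANO6 (0.88), BAX like POMT1 (0.93) and BAK1 like CTNNBL1 (0.94), and BID was most like WRNIP1 (0.89). In HMLE BCL2L11 and BIK followed each other over 8 groups (r = 0.94), and BBC3 ran opposite to BAK1 (r = -0.95) and BAX (r = -0.90). These groups share hairpins and conditions, and the values are descriptions. The annotation places the miRNA genes MIR3190 and MIR3191 within BBC3, MIR3198-1 within BID, a pseudogene within BCL2 and a pair of non-coding genes, one named BCL2L1-AS1, within BCL2L1. Whether counting used strand is not given in the sources used here, so reads of BCL2L1 and of its antisense partner may not be told apart.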

How the data were processed

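Each RNA sample has 1 deposited file of whole-number counts for 58735 genes, which the authors made. Libraries were prepared with a SMARTER mRNA-Seq kit from RNeasy-purified RNA, per the labels' protocols. The submitters' processing notes name the builds hg19 and hg38 and the tools featureCounts, STAR, Bowtie2, cutadapt, HOMER and DESeq. Which of them served RNA, and the strand setting, are not given in the sources used here. The 9 ChIP samples were not analysed here.

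Members and lists were chosen with earlier results of these data known. Genes were named if they were members, and in the lists as examples chosen after their values were seen. Ensembl IDs were paired with symbols through RefSeq and gene name tables, and all 10 members matched. CPM is counts per 1000000 of the library total. Counts were fitted with edgeR 4.0.16 (R 4.3.3): filterByExpr, TMM, and the quasi-likelihood F test, with p-values adjusted by Benjamini and Hochberg over all genes tested and 0.05 as threshold ("passed", "called"). LX-2 was fitted with 15 libraries (18649 genes), HMLE with 15 (17940) and both lines with 30 (20308), in 27 comparisons. SEs were obtained by dividing the size of each log2 change by the root of its F statistic. The discordant library and its exclusion are described above. Alternatives were DESeq2 1.42.0, its size factors within edgeR, no filter, only the groups compared, a replicate block, leaving out each library, and all 16 LX-2 libraries. The test was checked on simulated data. The precision is that of 1 or 2 libraries a group. Lines that were blank, without a gene or a count, were dropped.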

Additional observations from a re-analysis of the deposited data

Results flagged for a closer look

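These results were picked out because the response to a condition differed between the hairpins by a test of the difference itself (shATF4 minus shCtrl, log2). In LX-2 under thapsigargin the difference was -1.17 for BCL2 and -1.94 for PMAIP1, both resting on a single shCtrl thapsigargin library. In LX-2 under AA_Dep it was -1.46 for BCL2 and -1.74 for PMAIP1. In HMLE under Twist_OE it was 2.22 for BIK, 2.01 for BCL2L11, 0.70 for BID and 0.33 for PMAIP1, and -0.46 for MCL1 and -0.25 for BCL2L1. In HMLE under thapsigargin it was -0.69 for PMAIP1 and -0.32 for BCL2L1. In HMLE under AA_Dep it was 0.31 for BAX, with 1 shATF4 AA_Dep library.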

How the results depend on the processing

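Counts of called members moved mostly with the LX-2 library that stood apart. With all 16 LX-2 libraries the biological coefficient of variation was 29.5%, against 9.21% with 15, and the count was 3 for AA_Dep over DMSO with shCtrl, 1 between hairpins under TGFbeta, and 0 by edgeR for TGFbeta over DMSO with shATF4 and with shCtrl, for thapsigargin and AA_Dep over DMSO with shATF4, between hairpins under DMSO, thapsigargin and AA_Dep, and for the thapsigargin and AA_Dep differences of responses, where 0 to 5 of 10 had an unadjusted p under 0.05. With no filter on low counts it was 2 between hairpins under thapsigargin in LX-2, and 3 between hairpins and 0 for the difference of responses under AA_Dep in HMLE. With only the groups compared it was 2 between hairpins under thapsigargin and 0 under AA_Dep in LX-2, and 0 for the difference of responses under AA_Dep in HMLE. That last count was also 0 with DESeq2 and with its size factors.

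Same-numbered deviations correlated at -0.31 to 0.25 (median -0.01) over 7 LX-2 groups and at -0.05 to 0.23 (median 0.055) over 7 HMLE groups. LX-2 shCtrl thapsigargin and HMLE shATF4 AA_Dep were left out of these. Such values cannot settle whether replicate numbers pair the samples. With the replicate block the count was 1 between hairpins under AA_Dep in LX-2 and 3 for the difference of responses under AA_Dep in HMLE, and the other counts stayed within 1.5 times.

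Leaving out each library in turn gave, in LX-2, 3 to 5 called members (TGFbeta over DMSO), 2 (thapsigargin) and 3 to 4 (AA_Dep) with shATF4, and 3, 4 to 9 and 6 to 8 with shCtrl. Between hairpins in LX-2 it gave 2 under DMSO, 2 to 4 under TGFbeta, 0 to 8 under thapsigargin and 0 to 4 under AA_Dep, and for differences of responses 0 (TGFbeta), 2 to 7 (thapsigargin) and 2 to 4 (AA_Dep). In HMLE it gave 1 to 3 (Twist_OE), 5 (thapsigargin) and 10 (AA_Dep) with shATF4 and 7, 5 to 7 and 10 with shCtrl, 1, 6 to 8, 2 to 4 and 2 to 3 between hairpins under DMSO, Twist_OE, thapsigargin and AA_Dep, and 6, 2 to 3 and 0 for the differences under Twist_OE, thapsigargin and AA_Dep. LX-2 over HMLE gave 8.

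Signs of single members turned, counting those past the threshold in either setting, only where the discordant library entered. With all 16 libraries BAX was 1.98 for thapsigargin over DMSO with shCtrl and PMAIP1 0.16 between hairpins under thapsigargin (adjusted p = 0.0294 and 0.782). Leaving out each library in turn, with the turned sign where that library alone stood for its group, thapsigargin over DMSO with shCtrl ran from -0.16 to 1.67 for BCL2L1, -0.65 to 0.17 for MCL1, -0.046 to 2.73 for BAX, -0.33 to 0.75 for BAK1 and -0.24 to 1.77 for PMAIP1. Between hairpins under thapsigargin MCL1 ran from -0.21 to 0.59, PMAIP1 from -0.50 to 1.44 and BCL2L11 from -0.15 to 2.37, and the difference of responses from -0.91 to 0.20 for BAK1 and from -0.25 to 2.29 for BCL2L11. Why that library differs was not tested. Low counts limit BIK in LX-2 and BCL2 under AA_Dep in HMLE.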
